A study of Mus musculus with 4 samples.

Results

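Gclc, Gclm, Gsr, Slc7a11, Srxn1, Txnrd1, Txn1, Prdx1 and Prdx6 encode cystine import, glutathione synthesis, glutathione reduction and the thioredoxin system, and their transcripts were compared between aortic smooth muscle cells that carry floxed or normal Atg7. They were found by the gene name that the array files give each probe. All 9 were on the array, of 28307 gene names in all, with 19 probes among them. Of these probes 14 passed the filter on dim and uneven spots, and 8 of the 9 genes were measured.

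The cells were primary aortic smooth muscle cells of strain C57LB/6, as the labels spell it, with the genotype Atg7F/F SM22α-Cre+ or Atg7+/+ SM22α-Cre+. Cre driven by SM22α, a promoter of smooth muscle, was therefore present in both genotypes. The cells were kept in DMEM/F-12 with 10% FBS and taken at passages 4 to 10. The labels give neither the age of the mice nor the passage of each extract. Each genotype had 2 biological replicates by the labels, and an Atg7F/F extract and an Atg7+/+ extract of one number shared 2 arrays with the dyes exchanged. That made 4 arrays and n = 2 pairs. Every limma p-value therefore rests on the spread between 2 pairs, drawn towards the spread pooled over all genes. Of its 3.18 degrees of freedom, 2.18 came from the pooled spread. Since this is bulk RNA, fewer cells of a type and less RNA per cell cannot be told apart.

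Glutathione is the main small thiol of the cell. Imported cystine is reduced to cysteine, glutamate-cysteine ligase joins it to glutamate in the limiting step, and glutathione reductase returns the oxidised form to use with electrons from NADPH. The thioredoxin system works beside it: thioredoxin reductase passes electrons from NADPH to thioredoxin, thioredoxin restores peroxiredoxins, and sulfiredoxin repairs peroxiredoxins that peroxide has overoxidised. Many of these genes are known targets of the transcription factor NRF2, which binds antioxidant response elements and is held down by KEAP1.

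Promoters were available from RefSeq (GRCm38.p6) for 6 of the 9 genes: Gclm, Prdx1, Slc7a11, Srxn1, Txn1 and Txnrd1. They cover 250 bases before and 50 after each start, and with several starts for Txnrd1 they made 8 windows. The core of the antioxidant response element, TGACNNNGC, was searched on both strands and found in 4 of the 8, against 12.4% of all 32851 windows. It begins at base 29 after the start in Srxn1, and at 134, 133 and 92 bases before it in Gclm, Prdx1 and 1 window of Txnrd1, counted to its first base on the printed strand, and in each of these it reads on the opposite strand. The motif of AP-1, TGANTCA, lay in Srxn1 at -102 and -45 and in Prdx1 at -237 and -131, against 7.8% of all windows. The one at -131 of Prdx1 overlaps the antioxidant response element core. A match describes these letters and is not a binding site. The windows of Srxn1, Prdx1 and Txnrd1 are shown because they hold a match beside a measured transcript, with both motifs in capitals, 5′ to 3′ along the gene. They lie on the plus strand at chr2:152105274-152105573, chr4:116685349-116685648 and chr10:82858956-82859255.
Srxn1: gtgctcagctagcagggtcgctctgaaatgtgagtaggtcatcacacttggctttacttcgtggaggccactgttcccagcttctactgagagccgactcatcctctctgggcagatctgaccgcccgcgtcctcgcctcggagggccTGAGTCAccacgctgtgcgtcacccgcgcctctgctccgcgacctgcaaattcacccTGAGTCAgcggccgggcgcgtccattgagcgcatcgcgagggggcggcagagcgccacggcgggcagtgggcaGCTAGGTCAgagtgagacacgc
Prdx1: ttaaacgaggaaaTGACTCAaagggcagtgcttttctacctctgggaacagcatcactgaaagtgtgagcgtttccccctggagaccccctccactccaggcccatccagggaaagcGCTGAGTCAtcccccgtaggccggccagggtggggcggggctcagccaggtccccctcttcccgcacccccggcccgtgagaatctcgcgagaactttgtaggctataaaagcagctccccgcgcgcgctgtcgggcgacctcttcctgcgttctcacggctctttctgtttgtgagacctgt
Txnrd1: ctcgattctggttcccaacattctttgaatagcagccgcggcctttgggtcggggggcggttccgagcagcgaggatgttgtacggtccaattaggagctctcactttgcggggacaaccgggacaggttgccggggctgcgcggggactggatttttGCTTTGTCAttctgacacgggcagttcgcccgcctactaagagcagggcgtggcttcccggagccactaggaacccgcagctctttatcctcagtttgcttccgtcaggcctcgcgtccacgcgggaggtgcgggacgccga

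Several probes read Srxn1, Gsr and Prdx6, and since results below turn on how those probes differ, the first 30 of the 60 bases of each measured probe are shown. Their places are those of the files, on mm9. Capitals mark bases that another probe of the same gene also covers. On mm9 the stretches of Srxn1 lie on the plus strand at chr2:151936919-151936948 for the main probe, which is the brightest and stands for the gene, chr2:151935232-151935261 for probe 2 and chr2:151935185-151935214 for probe 3. Those of Gsr lie on the plus strand at chr8:34807813-34807842 for the main probe and, further along the gene's strand, chr8:34808378-34808407 and chr8:34808399-34808428 for both distal ones. Those of Prdx6 lie on the minus strand at chr1:163171364-163171393 for the main probe, chr1:163177432-163177461 for the second and chr1:163170743-163170772 for the distal one.
Srxn1 main: aaagagactagggagagaaagcacattagc
Srxn1 probe 2: ATGAACTATGTACtaggaagtaaaggaaaa
Srxn1 probe 3: ggacttggagacaaggactctcattttaat
Gsr main: gggaggaaccgatcgagtttacgcccagct
Gsr first distal: aatggtttgtgttattttcatGGAACAAAG
Gsr second distal: GGAACAAAGTGCATTAAAGTTAGACTTGAG
Prdx6 main: gacagccgggagaattcttacagggaatct
Prdx6 second: agtttgccaagaggaatgttaagttgattg
Prdx6 distal: ggttgagaaccactaatggttaggtagtct

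Across the arrays 43.3% to 45.5% of spots were well above background in a channel, and 0 were saturated. Atg7, the targeted gene, had log2 ratios of Atg7F/F over Atg7+/+ of -1.26, -1.09, -0.96 and -1.57 on the arrays, so it was lower in the cells labelled Atg7F/F on every array. The labels do not give the floxed exon, so whether the probe of these ratios lies inside the deletion is not known. A second Atg7 probe was well above background on 0 arrays in either genotype, and nothing is read from it. Over all 12367 genes measured, the ratio of replicate 1 and that of replicate 2 correlated at -0.1 across genes, which are not independent points.

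Slc7a11, Gclc, Gsr, Txnrd1 and Srxn1, 5 of the 8 measured genes, were higher in Atg7F/F than in Atg7+/+ cells on all 4 arrays, where 10.6% of all genes tested were, and 0 of the 8 were lower on all 4, where 9.95% were. In Atg7F/F as in Atg7+/+ their main probes were well above background on every array, so none entered through one genotype alone. The median log2 ratio of the 8 was 0.34, against 0.00 over all genes tested. In replicate 1 it was 0.47 and in replicate 2 it was 0.17. At an unadjusted p below 0.05 from limma 4 of the 8 were higher, against 1.34% of all genes, and 0 were lower, against 1.64%. By the Benjamini-Hochberg adjusted p of limma, 0 of the 8 were called, as were 0% of all genes. An exact sign-flip test of 2 pairs cannot go below p = 0.5. With each array centred on its median in place of loess, 3 of the 8 were higher on all 4 arrays, where 4.86% of all genes were. The genes were chosen with results of these data in view, so these counts describe them and do not test the group.

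**Figure D1:**
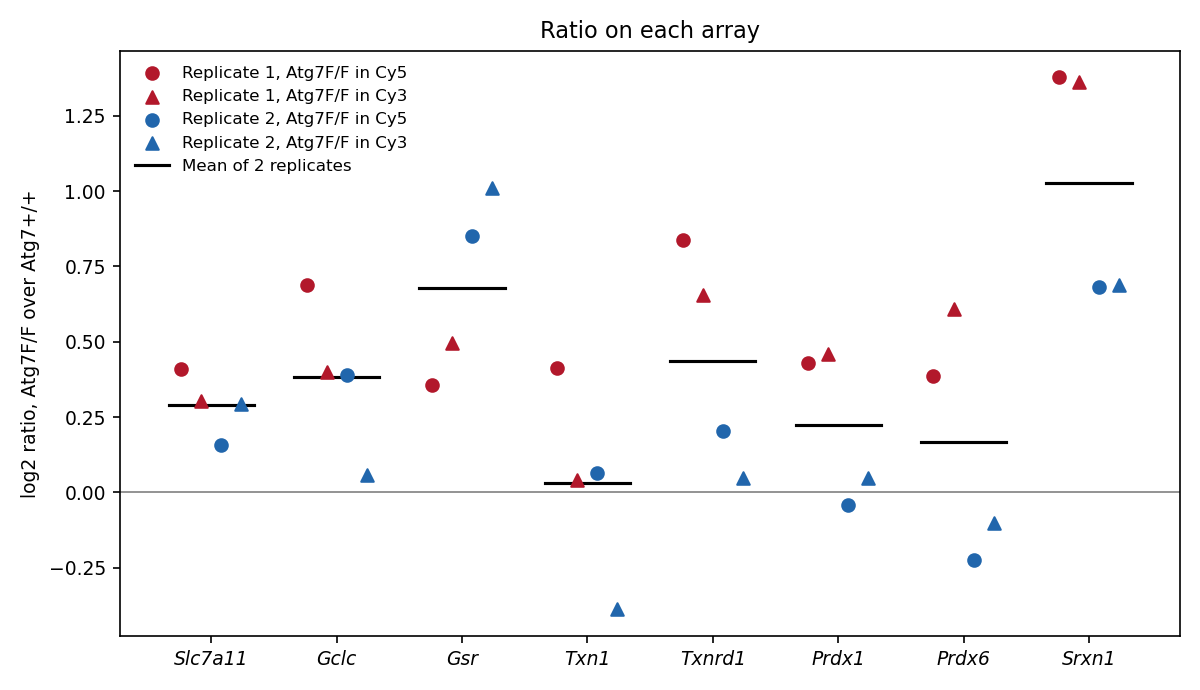
Log2 ratio of Atg7F/F over Atg7+/+ on each of the 4 arrays for the 8 measured genes. Colour gives the replicate pair, shape the dye of the Atg7F/F extract and the black line the mean of 2 replicates. All 4 points of Srxn1 lie at or above 0.68, while Txn1, Prdx1 and Prdx6 have points on both sides of 0.

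Slc7a11 encodes the light chain of the cystine and glutamate exchanger, the entry point of cysteine for glutathione. Its measured probe, on the minus strand at chr3:50169700-50169759, had log2 ratios of 0.41 and 0.30 in replicate 1, and 0.16 and 0.29 in replicate 2, each time with Atg7F/F in Cy5 first. The normalized log2 signals were 6.91 in replicate 1 and 6.86 in replicate 2 of Atg7F/F, against 6.55 and 6.64 in Atg7+/+, the order kept for the genes that follow. Both Atg7F/F values lay above both Atg7+/+ values, in a dim range. The share of all genes with such a separation of 2 extracts from 2 is not given. Here and below it therefore only describes the values. The mean ratio was 0.29 ± 0.09 (SD, n = 2), a 1.22-fold difference, with a limma 95% interval of 0.01 to 0.57 and p-values of 0.0470 unadjusted and 0.9998 adjusted. On the array with Atg7F/F in Cy5 in replicate 1 the raw signal was 136.0 over a local background of 85.0 in the Atg7F/F channel, and 66.7 over 44.0 in the Atg7+/+ channel. An offset added to both channels pulls the ratio of such a dim spot towards 0: without it the mean was 0.69, and with the signals as processed by the scanner software it was 1.39. The direction was the same in all 3, but the size of the Slc7a11 difference is not settled by these arrays. The other 3 probes of Slc7a11 were well above background on 0 arrays in either genotype.

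Gclc, the catalytic subunit of glutamate-cysteine ligase, was read by 1 probe on the plus strand at chr9:77641296-77641355. Replicate 1 gave ratios of 0.69 and 0.40, and replicate 2 gave 0.39 and 0.06. Its log2 signals were 9.29 and 9.07 in Atg7F/F extracts and 8.74 and 8.85 in Atg7+/+ extracts. The groups did not overlap, and the mean ratio was 0.38 ± 0.23 (SD, n = 2), a 1.30-fold difference with a limma interval of 0.00 to 0.76 and p-values of 0.0487 unadjusted and 0.9998 adjusted. In both replicates the ratio was higher with Atg7F/F in Cy5, and the lowest array lay close to 0. With median centring the array with Atg7F/F in Cy3 of replicate 2 gave -0.15.

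Gclm, the modifier subunit that raises the activity of Gclc, could not be measured. Its 1 probe was well above background on 0 of 4 arrays in Atg7F/F and on 0 of 4 in Atg7+/+. With Atg7F/F in Cy5 the raw signals of replicates 1 and 2 were 90.2 and 85.6 in Atg7F/F, over local backgrounds of 91.0 and 83.0, and 54.7 and 55.6 in Atg7+/+, over 44.0 and 46.0. The files place this 60-base probe over 2636 bases of chromosome 3, more than its own length. Nothing can be said of a difference in Gclm at this signal.

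Gsr encodes glutathione reductase, which uses NADPH to return oxidised glutathione to its reduced form. On its main probe replicate 1 gave ratios of 0.36 and 0.50, and replicate 2 gave 0.85 and 1.01. The log2 signals were 9.70 and 10.52 in Atg7F/F extracts and 9.27 and 9.59 in Atg7+/+ extracts. Both Atg7F/F extracts were above both Atg7+/+ extracts, and the Atg7F/F extracts themselves lay 0.82 apart, where 90% of genes lay within 0.50 of each other. The mean ratio was 0.68 ± 0.36 (SD, n = 2), or 1.60-fold, with a limma interval of 0.17 to 1.19 and p-values of 0.0231 unadjusted and 0.9998 adjusted. In the main processing 0.558% of all genes tested were at least as high. Its place among the 8 was not stable: second there, behind Slc7a11 and Srxn1 with processed signals, and below Txnrd1 and Gclc by the mean of probes or in replicate 1 alone.

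The distal Gsr probes gave another picture. They share 39 bases with each other, so they are not independent, and start 565 and 586 bases from the start of the main one. They were well above background on 4 arrays in Atg7F/F and on 2 in Atg7+/+, those of replicate 1, so they passed the filter through Atg7F/F alone. In replicate 1, where both channels were measured, their ratios were -0.20 and -0.14. In replicate 2 the computed ratios of 0.48 and 0.30 stand against an Atg7+/+ channel not well above background and are no measured difference. The first of them had raw signals of 132.3 in Atg7F/F and 56.3 in Atg7+/+ on the array of replicate 2 with Atg7F/F in Cy5, over backgrounds of 84.5 and 44.0. On the matching array of replicate 1 they were 126.9 and 91.5, over 85.5 and 45.0. Thus the Gsr difference in replicate 1 was seen by the main probe alone. The mean over all 3 probes, 0.30, includes those values and is not a measured size either.

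Txn1, cytosolic thioredoxin, had the smallest mean ratio of the measured genes in the main processing and, like the others, was not called. Its 1 probe, on the minus strand at chr4:57956677-57956736, gave ratios of 0.41 and 0.04 in replicate 1, then 0.06 and -0.39 in the other pair. The log2 signals were 10.09 and 9.81 in Atg7F/F extracts and 9.86 and 9.97 in Atg7+/+ extracts. The groups overlapped, and the mean ratio was 0.03 ± 0.27 (SD, n = 2), with a limma interval of -0.39 to 0.46 and an unadjusted p of 0.827. The ratio was higher with Atg7F/F in Cy5 than with Atg7F/F in Cy3, by 0.37 and 0.45 in replicates 1 and 2. For 90% of genes that dye difference stayed within 0.33 and 0.34.

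Txnrd1 encodes cytosolic thioredoxin reductase, the selenoenzyme that reduces Txn1. It was read by 1 probe on the plus strand at chr10:82360230-82360289, with ratios of 0.84 and 0.66 in replicate 1, against 0.20 and 0.05 in replicate 2. The log2 signals were 13.70 and 13.53 in Atg7F/F extracts and 12.96 and 13.40 in Atg7+/+ extracts. The groups did not overlap, but most of the difference sat in replicate 1, where the Atg7+/+ extract was the lowest of the 4. The mean was 0.44 ± 0.44 (SD, n = 2), or 1.35-fold, and the limma interval of -0.16 to 1.03 spans 0, with an unadjusted p of 0.105. Replicate 2 alone gave 0.13, against 0.75 in replicate 1 alone. With median centring the array with Atg7F/F in Cy3 of replicate 2 gave -0.30.

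**Figure D2:**
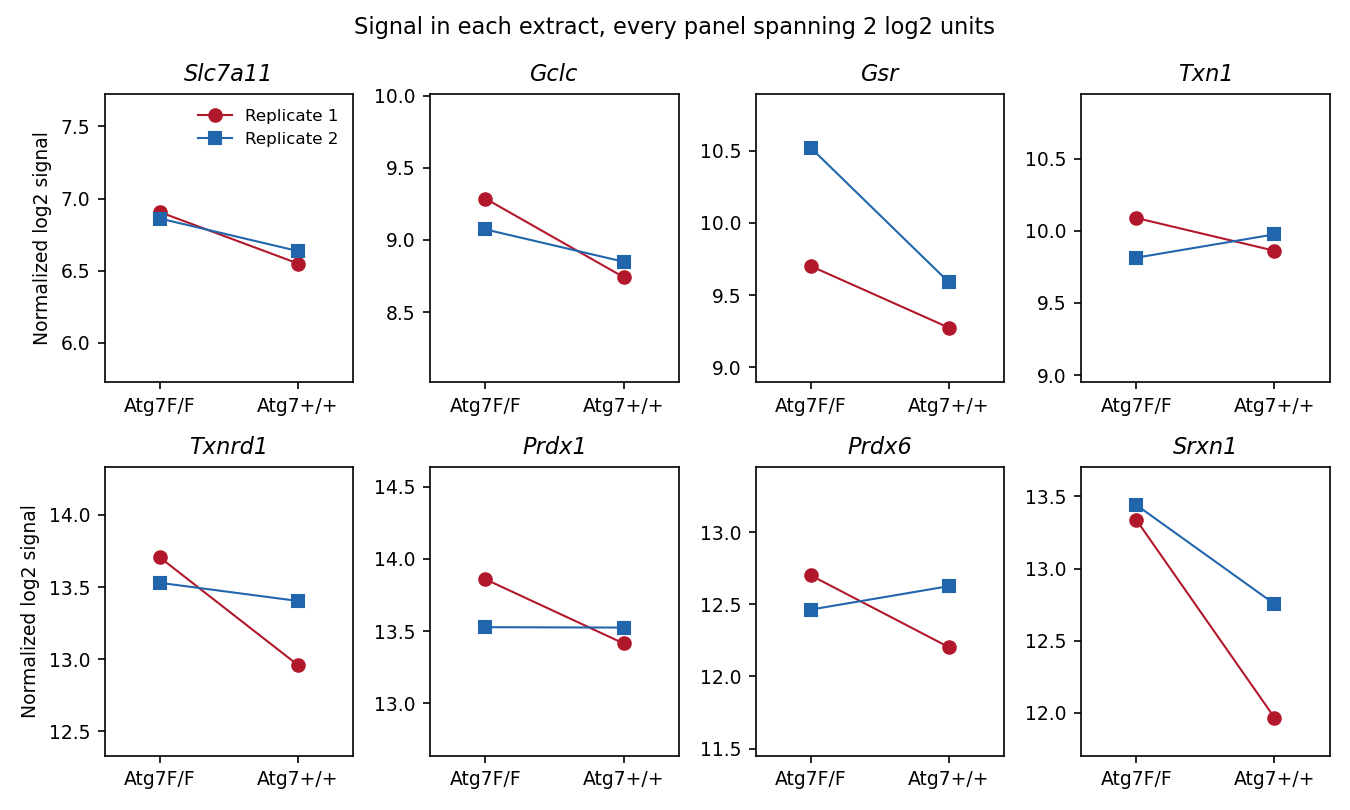
Normalized log2 signal of the main probe in each extract, with Atg7F/F left of Atg7+/+ in every panel, averaged over the dye-swapped arrays; lines join extracts that shared arrays. Every panel spans the same height, so slopes can be compared but levels of different probes cannot. Slc7a11, Gclc, Gsr, Txnrd1 and Srxn1 slope down to Atg7+/+ in both replicates, Prdx1 is nearly flat in replicate 2, and Txn1 and Prdx6 slope opposite ways in the replicates. The lines of Gsr and Srxn1 do not cross, and those of the other genes do.

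Prdx1 and Prdx6 encode peroxiredoxins, which reduce peroxides: Prdx1 is restored by thioredoxin, and Prdx6 is the 1-cysteine member that uses glutathione. Prdx1 had ratios of 0.43 and 0.46 in replicate 1, against -0.04 and 0.05 in replicate 2. Its log2 signals were 13.86 and 13.53 in Atg7F/F extracts and 13.41 and 13.52 in Atg7+/+ extracts. The groups did not overlap here either. The extracts of replicate 2 were nearly equal, so the mean of 0.22 ± 0.31 (SD, n = 2) came from replicate 1. Its limma interval was -0.24 to 0.69 and its unadjusted p 0.228. The files place this 60-base probe over 771 bases of chromosome 4.

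Prdx6 had opposite signs in the replicates. On the main probe they were 0.39 and 0.61 in replicate 1, against -0.22 and -0.10 in replicate 2. The log2 signals were 12.70 and 12.46 in Atg7F/F extracts and 12.20 and 12.63 in Atg7+/+ extracts, so the groups overlapped. The mean was 0.17 ± 0.47 (SD, n = 2), with a limma interval of -0.46 to 0.79 and an unadjusted p of 0.467. The second probe, which also lists an accession of Prdx6b, ran the same way, with 0.46 in replicate 1 and -0.08 in replicate 2. The distal probe was well above background on 1 array in Atg7F/F and on 4 in Atg7+/+, so it passed the filter through Atg7+/+ alone, and nothing is read from its computed ratios of -0.08 and -0.35. A further Prdx6 probe was well above background on 0 arrays.

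Srxn1 encodes sulfiredoxin, which uses ATP to repair overoxidised peroxiredoxins of the Prdx1 type, and its mean ratio was the highest of the 8 in the main processing. With processed signals and in the authors' deposited table Slc7a11 was above it, at 1.39 against 1.04, and in replicate 2 alone Gsr was. The main probe gave log2 ratios of 1.38 and 1.36 in replicate 1, against 0.68 and 0.69 in replicate 2. The log2 signals were 13.34 and 13.44 in Atg7F/F extracts, against 11.97 and 12.75 in Atg7+/+ extracts. The Atg7F/F extracts lay close together and above both Atg7+/+ extracts, and the Atg7+/+ extracts lay 0.79 apart, where 90% of genes lay within 0.44. The mean ratio was 1.03 ± 0.48 (SD, n = 2), or 2.04-fold, with a limma interval of 0.38 to 1.67 and p-values of 0.0142 unadjusted and 0.9998 adjusted. Of all genes tested, 0.194% were at least as high. Probes 2 and 3, which share 13 bases with each other and none with the main one, gave 1.03 ± 0.09 and 0.69 ± 0.07, and both were above 0 on all 4 arrays. All 3 Srxn1 probes were well above background on every array in Atg7F/F and in Atg7+/+.

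**Figure D3:**
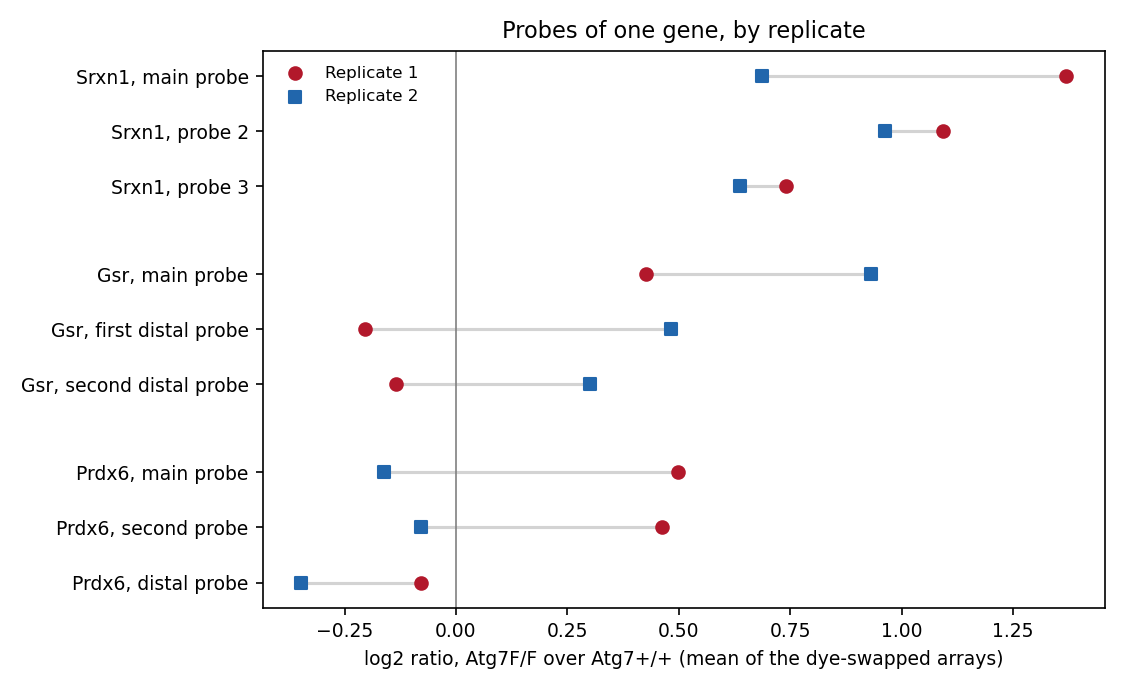
Log2 ratio of Atg7F/F over Atg7+/+ in replicate 1 (circles) and replicate 2 (squares) for each measured probe of Srxn1, Gsr and Prdx6, each point the mean of the dye-swapped arrays. The Srxn1 probes all lie above 0 in both replicates, while the distal Gsr probes lie below 0 in replicate 1. The distal Gsr probes in replicate 2 and the distal Prdx6 probe were not well above background in one genotype's channel on some or all arrays, so those points are not measured differences.

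The replicates differed in which genes stood out. In replicate 1 the ratio of Srxn1 (1.37) was followed by Txnrd1 (0.75), Gclc (0.54), Prdx6 (0.50), Prdx1 (0.44) and Gsr (0.43). In replicate 2 Gsr (0.93) came first, then Srxn1 (0.69), and Prdx1, Txn1 and Prdx6 lay at 0.00, -0.16 and -0.16. Between the Atg7+/+ extracts, replicate 2 was above replicate 1 by 0.79 in Srxn1, 0.44 in Txnrd1, 0.42 in Prdx6 and 0.31 in Gsr. In Txn1, Prdx1, Gclc and Slc7a11 it was above by 0.11, 0.11, 0.11 and 0.09. The median size over all genes was 0.13. Between the Atg7F/F extracts, replicate 2 was below replicate 1 in 6 of the 8, and above it in Gsr and Srxn1.

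Lists of other genes around both systems had medians close to that of all genes. Members and lists were drawn up with earlier results of these data known, so this contrast describes them and is not a test. Of 25 other genes of glutathione metabolism 20 were measured, with a median log2 ratio of 0.04 and a range of -0.42 to 0.35. None was called, 0 were higher on all 4 arrays and 1 was lower, the mitochondrial glutaredoxin Glrx2 (-0.27 ± 0.19). For comparison, 10.6% of the whole gene set had every array ratio above 0 and 9.95% had every one below 0. Both shares also stand beside the thioredoxin list that follows. Gss, which completes glutathione after Gclc, had -0.03 ± 0.21, and Slc3a2, the heavy chain that partners Slc7a11, had 0.14 ± 0.11. Of 28 other genes listed with the thioredoxin family 27 were measured, with a median of 0.01 and a range of -0.22 to 0.30. That list also holds genes outside the family proper, such as sestrins and methionine sulfoxide reductases, and a sestrin had the highest ratio. Of the 27, none was called and 1 was higher on all 4 arrays, the mitochondrial thioredoxin Txn2 (0.12 ± 0.02). On all 4 arrays 3 were lower, Tmx2 (-0.08 ± 0.01), the endoplasmic reticulum peroxiredoxin Prdx4 (-0.22 ± 0.01) and Txndc12 (-0.22 ± 0.02). The mitochondrial reductase Txnrd2 had 0.00 ± 0.14, beside the 0.44 of its cytosolic counterpart Txnrd1, and whether those ratios differ was not tested. These 8 genes were named after their values were seen.

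Of 13 measured genes of the NADPH list, named for the electron source of both systems, the median was 0.09 and none was called. On all 4 arrays 3 were higher (Taldo1, H6pd and Idh2, at 0.12 to 0.33) and 0 were lower. The list also holds pentose phosphate enzymes that make no NADPH themselves, Taldo1 among them. For this list and those that follow, the shares over all genes tested were 10.6% higher and 9.95% lower. Of 23 measured glutathione S-transferases, which consume glutathione, the median was 0.09, 7 were higher on all 4 arrays and 1, Gstt2, was lower, and none was called. Gsta3 (3.27 ± 0.49) and Gsta1 (3.14 ± 0.07) were the highest of them. The list of quinone and carbonyl reductases also holds an epoxide hydrolase and an aldehyde dehydrogenase. Its 16 measured genes had a median of 0.05, with Nqo1 (1.46 ± 0.13) and Cbr3 (0.61 ± 0.04) higher on all 4 arrays, Akr1c18 lower and none called. Of the 8 regulators the median was 0.03: Sqstm1 (0.35 ± 0.23), Nfe2l2, which encodes NRF2 (0.20 ± 0.15), Bach1 and Keap1 were higher on all 4 arrays, Maff and Mafk were lower, and none was called. Taldo1, H6pd, Idh2, Gstt2, Akr1c18 and the regulators were likewise named after their values were seen.

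**Figure D4:**
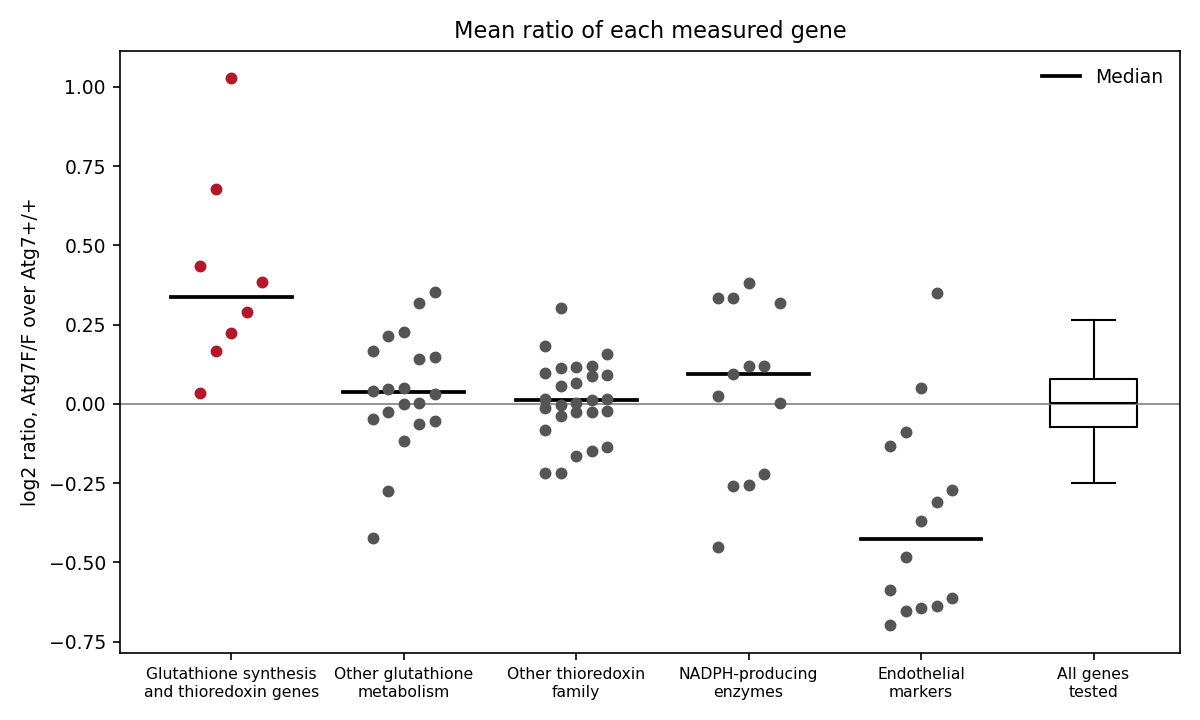
Mean log2 ratio of Atg7F/F over Atg7+/+ for each measured gene of the glutathione synthesis and thioredoxin group, of 3 related lists and of endothelial markers, with medians as lines, beside all 12367 genes tested (box, quartiles; whiskers, percentiles 5 and 95). The median of the group was 0.34, those of the related lists 0.04, 0.01 and 0.09, and that of endothelial markers -0.43. Group and lists were drawn up with earlier results of these data known, so their contrast is not a test. Some genes of the NADPH list make no NADPH themselves, and the thioredoxin list holds genes outside that family. Other lists are not drawn. Among them, glutathione S-transferases ranged from -0.18 to 3.27, the list of quinone and carbonyl reductases from -0.28 to 1.46 and regulators from -0.37 to 0.35. The -0.28 is that of an aldehyde dehydrogenase held in the reductase list.

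Marker counts on all 4 arrays stand beside 10.6% of all genes tested that were higher and 9.95% that were lower. The cultures carried smooth muscle markers, with 9 of 10 measured. The log2 of their summed signal was 18.11 and 17.70 in Atg7F/F extracts and 18.14 and 17.96 in Atg7+/+ extracts, Acta2 and Tagln were lower and Actg2 higher on all 4 arrays, and the median ratio was -0.06. Endothelial markers were all measured, and 11 of 14 were lower in Atg7F/F on all 4 arrays, with a median of -0.43 and log2 sums of 13.98 and 14.12 in Atg7F/F extracts and 14.19 and 14.89 in Atg7+/+ extracts. Of 8 fibroblast markers 2, Dpt and Cd34, were lower on all 4 arrays and 0 higher, with log2 sums of 12.93 and 12.60 in Atg7F/F extracts and 13.28 and 12.55 in Atg7+/+ extracts. Of 10 macrophage markers 5 were measured, Csf1r higher and Cd14 and Cd68 lower on all 4 arrays, with log2 sums of 11.00 and 12.19 in Atg7F/F extracts and 11.38 and 11.70 in Atg7+/+ extracts. The defining macrophage markers Adgre1, Itgam, Mrc1 and Ptprc were not above background on any array. The single markers Acta2, Tagln, Actg2, Dpt, Cd34, Csf1r, Cd14 and Cd68 were picked out after their values were seen. The part of these other cell types in the ratios of the glutathione and thioredoxin genes was not tested.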

How the data were processed

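Gene expression was measured on 4 two-colour Agilent arrays, each holding an Atg7F/F and an Atg7+/+ extract. The deposited scanner files hold the intensity of each spot (mean signal, median local background) before normalization, per the file headers. Agilent Feature Extraction 10.1.1.1 is named for them in those headers and in the submitters' processing notes. The files also carry that program's processed signals (background-subtracted, dye-normalized) with a log10 ratio (Cy5 over Cy3), as deposited by the authors. The authors' deposited value table holds log2 ratios; for 99.63% to 99.68% of probes an array it equalled the ratio of processed signals, as Atg7F/F over Atg7+/+, within 0.001, so scale and direction were read from the values. Column medians were 0.199, -0.094, 0.081 and -0.037. Its direction is that of the dyes in the labels.

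Intensities were corrected with limma 3.58.1 (R 4.3.3) by normexp with an offset of 50, normalized by loess within arrays with control spots at weight 0, turned to Atg7F/F over Atg7+/+ and averaged over each dye swap. Signals per extract came from between-array scaling of mean brightness (Aquantile). Of 41174 probes, 17109 were kept: those with no non-uniformity outlier and well above background in at least 1 genotype's channel on all 4 arrays. The brightest probe stood for a gene, which left 12367 genes. The 2 ratios per gene were tested against 0, two-sided, with lmFit and eBayes (3.18 degrees of freedom) and Benjamini-Hochberg adjustment over all genes, threshold 0.05. The pairing comes from the hybridisation scheme, and deviations of same-numbered extracts from genotype means correlated at 0.18 across genes. The pair is thus part of the ratio. No p was adjusted over the members and no set test was made.

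Named genes were the 9 members, Atg7, and from each related list up to 4 genes with one sign on all 4 arrays and a mean of at least 0.5 in size, of which not all are reported here; genes outside this rule are stated as such. The members and lists were chosen with earlier results of these data known. Alternatives were the offset, background step, processed signals, deposited table, median centring, probe filter, probe summary, prior variance, pairing, dye orientation and each replicate left out. The code was tested on simulated data. Probe coordinates are the files', on mm9, and without an annotation of that build exons and untranslated regions are not stated. Promoters are from RefSeq GRCm38.p6. Figures were drawn with matplotlib 3.10.9.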

Additional observations from a re-analysis of the deposited data

How the results depend on the processing

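With 2 pairs, limma called no gene in the main processing. Among the members the probe of Slc7a11 was dim, and Gclm was too dim to be tested. Gsta1, at 3.14 ± 0.07, had an adjusted p of limma of 0.387, so even a large and steady difference went uncalled. Over 16 alternatives the ratios of Slc7a11, Gclc, Gsr, Txnrd1, Prdx1 and Srxn1 kept their direction, Prdx1 barely, at 0.00 without replicate 1. Many of the alternatives could not reverse it. Changes of probe filter, prior variance or pairing left these ratios as they were, and processed signals and the deposited table gave the same values. A gene above 0 on all 4 arrays also keeps its sign when a replicate or a dye orientation is left out. In 0 of the 14 alternatives that had a test was a member called, and leaving out a replicate left no test. The lowest adjusted p of limma over them was 0.238 for Srxn1 and 0.371 for Gsr, both with the pair as a random block. Leaving out replicate 1 gave -0.16 for Txn1 and -0.16 for Prdx6, and the arrays with Atg7F/F in Cy3 alone gave -0.17 for Txn1. The cause was not tested, beyond the dye and replicate values in the text. With one replicate left out, Srxn1 ran from 0.69 to 1.37, Gsr from 0.43 to 0.93, Txnrd1 from 0.13 to 0.75, Gclc from 0.22 to 0.54, Prdx1 from 0.00 to 0.44, Slc7a11 from 0.23 to 0.36, Prdx6 from -0.16 to 0.50 and Txn1 from -0.16 to 0.23, and the median of the 8 from 0.17 to 0.47. Slc7a11 reached 1.39 with processed signals and in the authors' deposited table. The mean of probes gave 0.30 for Gsr and 0.05 for Prdx6, which include probes not well above background in one genotype, and 0.91 for Srxn1. Median centring left 3 genes with one sign on all 4 arrays, Slc7a11, Gsr and Srxn1, where 4.86% of all genes were higher on all 4. It also moved the genes at an unadjusted p below 0.05 to 232 higher and 115 lower, against 166 and 203.

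Over all genes, limma called 0 higher and 0 lower, with 369 at an unadjusted p below 0.05. With 4 arrays and the pair as a random block it called 7 higher and 2 lower, none of them a member, and without the replicate block, with extracts unpaired, it called 1 higher and 0 lower. Every other alternative with a test called 0.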
